A study of Homo sapiens with 8 samples.

Results

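Sites of changed chromatin accessibility were described around 5 epithelial transcription factor genes, GRHL1, GRHL2, GRHL3, KLF4 and KLF5. The assay was ATAC-seq, where Tn5 transposase cuts and tags open DNA for sequencing. The authors had deposited 2 site lists for the human embryonic stem cell line H9, and these were the data used. One holds 6037 sites, "p63-closed" below, which its name gives as opened by the morphogens and also as closed through p63. The other holds 8154 sites, "opened" below, whose list name speaks of opening by the morphogens and not of p63. The short names stand for the lists: by their names, sites of both lists were opened by the morphogens. A site belonged to a locus when its centre fell in a fixed hg19 interval around the gene. By this rule 42 of 14191 listed sites were members, 15 of them p63-closed and 27 opened.

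The study had 8 samples in 4 groups of 2. The p63-/- cells and the wild-type cells were both taken at day 7 of treatment with 2 morphogens, BMP4 at 5 ng/ml and retinoic acid at 1 uM, which turn pluripotent cells into surface ectoderm, the simple epithelium from which epidermis develops. At day 0, before any morphogen, cells carrying an inducible transgene (TetO:Tp63+/-) were taken after 2 days of doxycycline at 2 ug/ml, and wild-type cells were taken without it. The labels attach the p63-closed list to the p63-/- and wild-type samples at day 7, and the opened list to both wild-type groups. No list was analysed for the induced transgene line. The sources used here do not say whether the knockout or the transgenic line is a single clone. The lists hold positions and numbered names, with no count, signal or p-value, so depth is unknown, no value per sample can be given and no test between cultures was made. The direction of each change is that of the authors' list names.

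The grainyhead-like (GRHL) genes encode transcription factors of the CP2 family that switch on genes of cell junctions and of the epithelial barrier. In mice, Grhl2 is required for neural tube closure and for normal expression of the junction gene Cdh1, Grhl3 for closure of the spinal neural tube and for the skin barrier, and Grhl1 for expression of desmosomal cadherins in skin. KLF4 and KLF5 are Krüppel-like factors, which bind GC-rich and CACCC elements through C-terminal zinc fingers. KLF4 is a reprogramming factor of pluripotent cells and, in mouse skin, is needed for the barrier, while KLF5 is known for supporting proliferation in basal layers of epithelia. p63, encoded by TP63, is a p53-family factor needed for stratified epithelia.

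The intervals may also hold neighbouring genes, which was not determined, so a site in a locus is not shown to act on the named gene. In the RefSeq table (GRCh38.p14), the protein-coding neighbours in gene order are TAF1B and KLF11 for GRHL1, IFNLR1 and STPG1 for GRHL3, RAD23B and ACTL7B for KLF4, and PIBF1 and KLF12 for KLF5; NCALD follows GRHL2. KLF11 and KLF12 are themselves Krüppel-like factors. Positions of genes on hg19 were not used here, so the distance from a site to a gene start, and whether it lies in a promoter, intron or exon, was not determined. For the same reason, the placement of each interval around its gene was not checked. Positions of sites below are 1-based on hg19.

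The sequences of the listed sites were not used, for want of an hg19 genome. To show the start regions of the genes around which they lie, the 250 bases before the RefSeq start are given for the loci with the most p63-closed sites (KLF5, with 2 annotated starts, and KLF4) and for the locus with none (GRHL1). They are from the GRCh38.p14 build, whose coordinates cannot be set against the hg19 sites: chr13:73054726-73054975 and chr13:73058755-73059004 (plus strand) for KLF5, chr9:107489770-107490019 (minus strand) for KLF4 and chr2:9951443-9951692 (plus strand) for GRHL1. Each is written 5′ to 3′ on the strand of its gene. Capitals mark matches on either strand to 4 short motifs, ACCGGT (core of the GRHL motif), CACCC (KLF core), CATG (core of the p63 half-site) and GATA; no match overlapped another.
KLF5, start 1: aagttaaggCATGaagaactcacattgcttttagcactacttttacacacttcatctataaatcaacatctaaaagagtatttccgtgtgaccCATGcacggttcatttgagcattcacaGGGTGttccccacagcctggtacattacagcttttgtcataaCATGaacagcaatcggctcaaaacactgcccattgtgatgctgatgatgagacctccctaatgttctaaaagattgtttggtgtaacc
KLF5, start 2: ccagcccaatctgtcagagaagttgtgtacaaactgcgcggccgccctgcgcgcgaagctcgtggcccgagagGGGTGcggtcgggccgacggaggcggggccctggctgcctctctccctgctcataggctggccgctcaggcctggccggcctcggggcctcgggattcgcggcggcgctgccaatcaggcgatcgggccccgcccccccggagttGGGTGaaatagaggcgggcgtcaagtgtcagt
KLF4: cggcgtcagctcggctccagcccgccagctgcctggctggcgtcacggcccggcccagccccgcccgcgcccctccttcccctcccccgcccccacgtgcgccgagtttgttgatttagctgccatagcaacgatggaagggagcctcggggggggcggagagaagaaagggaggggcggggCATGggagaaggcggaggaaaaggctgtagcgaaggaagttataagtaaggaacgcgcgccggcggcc
GRHL1: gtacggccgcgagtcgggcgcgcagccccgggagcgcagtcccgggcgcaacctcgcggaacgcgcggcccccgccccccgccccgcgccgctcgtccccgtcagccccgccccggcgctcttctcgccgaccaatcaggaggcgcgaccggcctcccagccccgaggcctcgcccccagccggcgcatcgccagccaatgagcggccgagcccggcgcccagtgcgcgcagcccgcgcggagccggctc

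The KLF5 start 1 region held 3 matches to CATG and 1 to CACCC, and its start 2 region held 2 matches to CACCC. The KLF4 region held 1 match to CATG, and the GRHL1 region held no match to any of the 4 motifs. Of 35116 RefSeq windows of the same length, the p63 half-site core was in 47.6%, the KLF core in 54.7%, GATA in 45.6% and the GRHL core in 1.45%. The GRHL core was in 0 of 6 windows of GRHL1, GRHL3, KLF4 and KLF5; no window of GRHL2 was used. The 2 windows of GRHL3, not shown, held 3 and 1 matches to the KLF core, 3 and 1 to GATA and none to the p63 half-site core. Apart from the GRHL core, which is rare, these letters are common in promoters, and a match is not a bound site. GC content was 40.8% at KLF5 start 1, 70.8% at KLF5 start 2, 69.2% at KLF4 and 81.6% at GRHL1, against a median of 58.0% over all the windows. Whether a listed site covers any of these regions was not determined.

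Listed sites were denser in the 5 loci pooled than over the lists as a whole. In value, the density was above that of the lists at GRHL2, KLF5 and KLF4, and near it at GRHL1 and GRHL3. GRHL2 held 2 p63-closed and 9 opened sites, KLF4 held 5 and 7, KLF5 held 6 and 7, GRHL3 held 2 and 1, and GRHL1 held 0 and 3. Site names carry numbers that run along the chromosomes, as if drawn from 1 catalogue of candidate regions, and these numbers served as a denominator. The 5 loci, 4.35 Mb in all, spanned 3006 catalogue entries. Of these entries 1.40% were listed, against 0.775% over all chromosomes. The density was 14.0 listed sites per 1000 entries in the loci and 7.75 over the whole lists, a ratio of 1.80 (exact 95% Poisson interval 1.30 to 2.44, counting error only); per Mb the ratio was 1.99. By locus the density was 20.5 at GRHL2 (10.2 to 36.7), 16.1 at KLF5 (8.59 to 27.6) and 13.7 at KLF4 (7.09 to 24.0). The interval of KLF4 includes the 7.75 of the whole lists and that of KLF5 does not. With 12 listed sites at KLF4 and 13 at KLF5, this does not set these loci apart. GRHL3, at 7.88 (1.62 to 23.0), and GRHL1, at 7.35 (1.52 to 21.5), were near the 7.75 of the whole lists. Split by list, the loci held 4.99 p63-closed sites per 1000 entries (2.79 to 8.23), against 3.30 in the whole list, and 8.98 opened sites per 1000 entries (5.92 to 13.1), against 4.45. Sites gather along the genome and the loci were chosen with earlier results of these data known, so these intervals are no test.

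The share of listed sites that were p63-closed was 35.7% in the 5 loci (15 of 42; exact Clopper-Pearson 95% interval 21.5 to 52.0%), against 42.5% of all listed sites. It was 23.5% in the 3 GRHL loci (4 of 17; 6.81 to 49.9%) and 44.0% in the 2 KLF loci (11 of 25; 24.4 to 65.1%). The intervals of the families overlap each other and both include the share of the whole lists. By locus the share was 0% at GRHL1 (0 to 70.8%), 18.2% at GRHL2 (2.28 to 51.8%), 66.7% at GRHL3 (9.43 to 99.2%), 41.7% at KLF4 (15.2 to 72.3%) and 46.2% at KLF5 (19.2 to 74.9%). Each of these intervals also includes the share of the locus's own chromosome, which ran from 36.1% on chromosome 8 to 47.1% on chromosome 2. The intervals cover counting error only and neighbouring sites are not independent, so they are no test. No difference in the mix of lists can therefore be read from these numbers of sites.

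**Figure D1:**
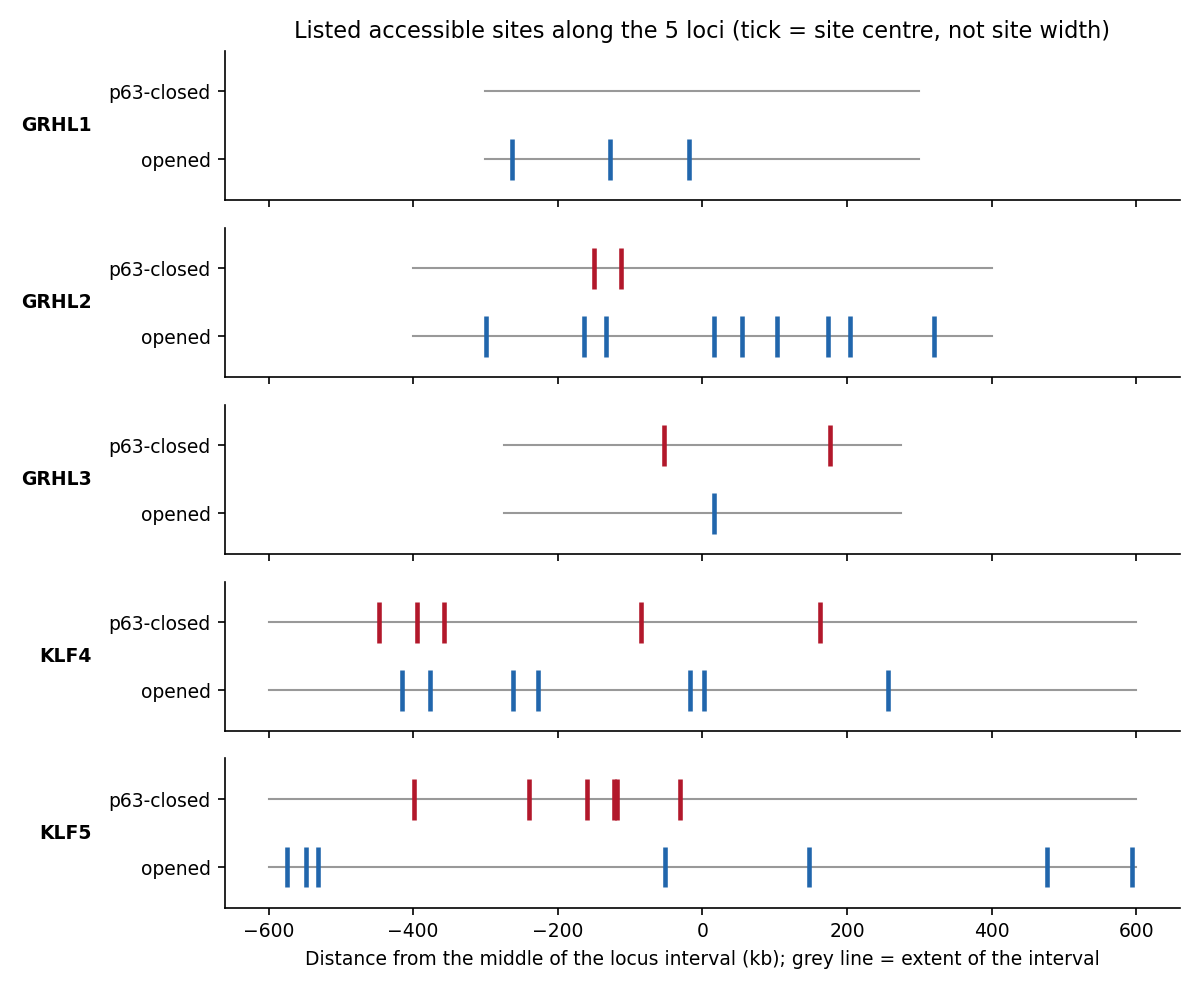
Positions of the 42 listed sites along the 5 loci, as kb from the middle of each interval; ticks are site centres, p63-closed sites are drawn above opened sites, and the grey line is the extent of the interval. The 5 p63-closed sites in a row at KLF5, the alternating sites at the left of KLF4 and the absence of sites of the p63-closed list at GRHL1 can be seen. Of all p63-closed sites, 30.6% lie in runs of at least 5, and 46.8% of genome windows of 600 kb hold none. Of stretches of 5 listed sites as compact as that at KLF4, 5.28% alternate, an order noticed after the positions had been seen.

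**Figure D2:**
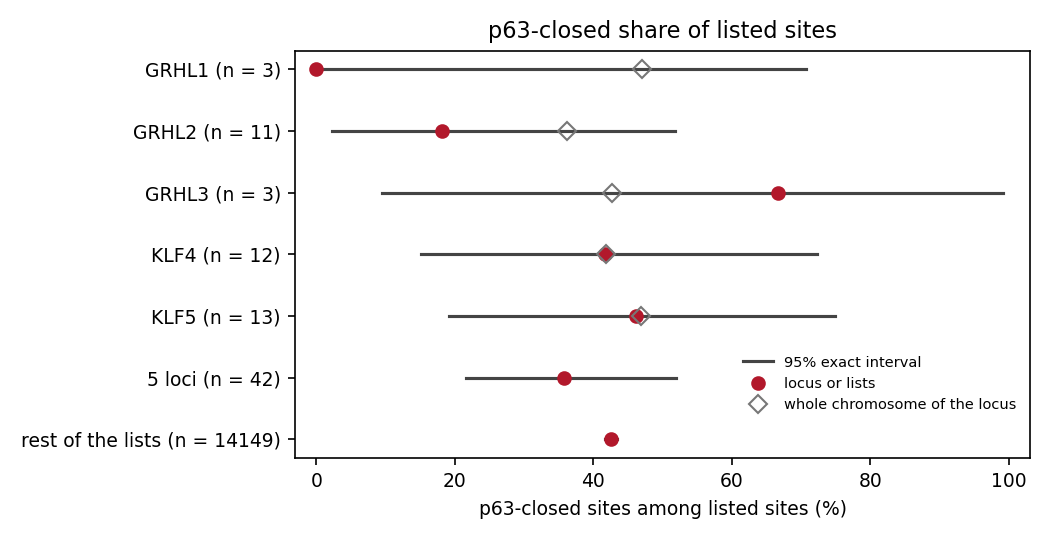
Share of listed sites that were p63-closed, in percent, with exact 95% intervals, in each locus, in the 5 loci together and in the rest of the lists; open diamonds give the whole chromosome of each locus. All 5 locus intervals include their chromosome's share.

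The counts of each locus were set beside windows of the same length tiled along every chromosome. GRHL2 stood farthest out, with 9 opened sites where such windows of 800 kb held 2.15 on average. As many or more were found in 1.5% of 3793 windows. Its 2 p63-closed sites were an ordinary number, as 38.6% of windows held at least as many. KLF5 held 6 p63-closed sites, and 12% of 2534 windows of 1200 kb held that number or more. KLF4 held 5, which 17.4% of the same windows reached. Each KLF locus held 7 opened sites, which 11.1% of windows reached. GRHL1 held 3 opened sites, reached by 23.6% of windows of 600 kb, and 0 p63-closed sites, as did 46.8% of them. GRHL3 held 2 p63-closed sites, reached by 27.5% of windows of 550 kb, and 1 opened site, a number at or above that of 61.4% of them. Apart from the opened sites of GRHL2, the counts were thus within the range of many windows. The GRHL2 share is the lowest of those given here, and the loci were chosen with earlier results of these data known, so it is no test. The windows include assembly gaps and gene-poor stretches, which the loci, each chosen around a gene, do not represent.

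**Figure D3:**
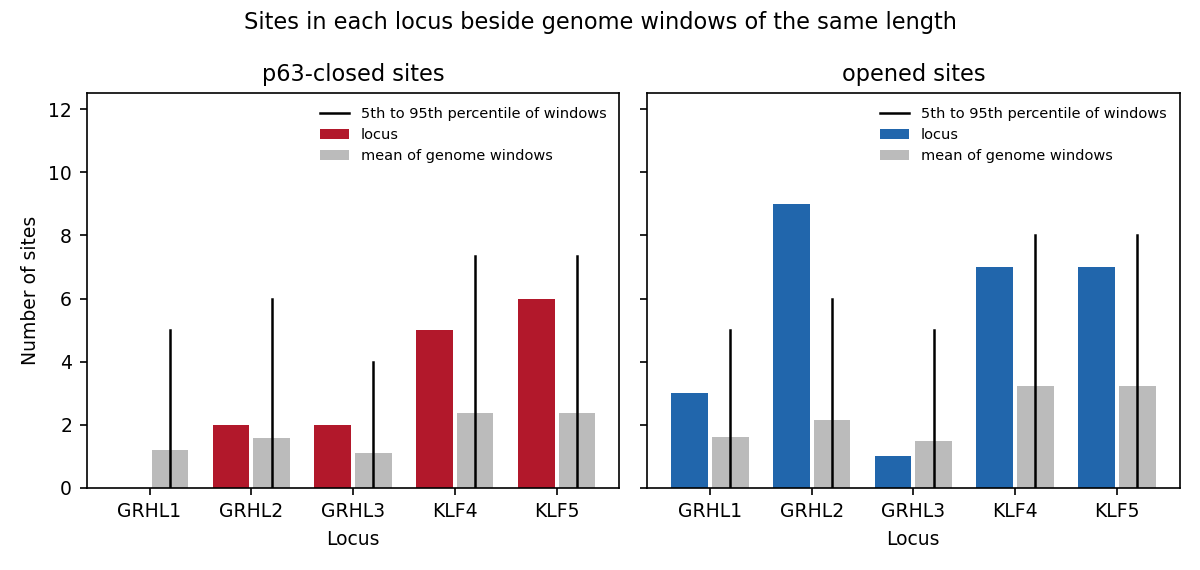
Number of p63-closed sites (left) and opened sites (right) in each locus, as coloured bars, beside the mean of genome windows of the same length, as grey bars with the 5th to 95th percentile of the windows as a line. The 9 opened sites of GRHL2 lie above the 95th percentile, which is 6, and the other counts lie within the lines.

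The GRHL2 interval, from 102200000 to 103000000 on chromosome 8, held 11 listed sites, a density of 20.5 per 1000 entries, against 8.72 for the whole chromosome. Its 2 p63-closed sites lay at 102448669 to 102451277 and 102485928 to 102487766, with 36.9 kb between their centres. The first is the wider, at 2609 bp, a width that 8.27% of p63-closed sites reach. Both lay among opened sites. Along 52.3 kb, from 102435494 to 102487766, the order was opened, p63-closed, opened, p63-closed. The closest pair of the 2 lists in any of the 5 loci is here, an opened site at 102435494 to 102437467 and the first p63-closed site. Their ends were 11.2 kb apart, and 4 unlisted catalogue entries lay between them. From 102613697 to the right there were no more p63-closed sites. The 6 opened sites there, up to 102921102, spanned 307 kb and belong to a run of 7 opened sites in a row; 35.5% of all opened sites lie in runs at least that long. The widest site of the locus, 3287 bp, began this run at 102613697 to 102616983, and 2.88% of opened sites are as wide or wider. A second opened site lay within 50 kb for 7 of the 9, as it did for 40.3% of the whole opened list.

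The GRHL1 interval, from 9800000 to 10400000 on chromosome 2, held 3 opened sites and no p63-closed site, 7.35 listed sites per 1000 entries against 8.18 for chromosome 2. With 408 catalogue entries in the interval, a count of 0 allows up to 9.04 p63-closed sites per 1000 entries (upper bound of the exact 95% Poisson interval), well above the 3.30 of the whole list. The opened sites lay at 9835665 to 9836799, 9970185 to 9972987 and 10080428 to 10082623, with widths of 1135, 2803 and 2196 bp. They were part of a longer stretch without p63-closed sites, a run of 13 opened sites from 9242440 to 11895067. Of all opened sites, 14.7% lie in runs of that length or longer. The nearest p63-closed site was 809 kb from the first of the 3 and farther from the others. To the right, no listed site of either kind followed until 11514391, which is 1115 kb beyond the border of the interval.

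At GRHL3, from 24400000 to 24950000 on chromosome 1, the order was p63-closed, opened, p63-closed. The p63-closed sites lay at 24620111 to 24622535 (2425 bp) and 24850693 to 24852259 (1567 bp). The opened site between them, at 24690826 to 24692401, was 1576 bp wide. It was 70.3 kb from the first and 160 kb from the second, so none of the 3 sites had a listed neighbour within 50 kb. The density in the interval, 7.88 listed sites per 1000 entries, was near the 7.29 of chromosome 1. The next listed site to the left was centred 511 kb outside the interval and the next to the right 853 kb outside.

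The KLF4 interval, from 109800000 to 111000000 on chromosome 9, held 5 p63-closed and 7 opened sites, which alternated more than in the other loci with over 3 sites. Of its 11 pairs of neighbouring listed sites, 9 had 1 site of each list, and 2 came from the same list. At KLF5 the mixed pairs were 4 of 12, at GRHL2 4 of 10, and over the whole lists 5449 of 14168. The first 5 sites, from 109950769 to 110043670, alternated without exception along 92.9 kb: p63-closed, opened, p63-closed, opened, p63-closed. This order was noticed after the positions had been seen. Of 360 stretches of 5 neighbouring listed sites as compact as this one, 19 alternate fully, or 5.28%. For 4 sites as compact as those at GRHL2 the share is 7.29%.

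The first site of that KLF4 stretch, at 109950769 to 109954000, was the widest p63-closed site of the 5 loci, at 3232 bp, and 2.58% of that list reach this width. The other 4 p63-closed sites were 940 to 1499 bp wide, below their list's median of 1531 bp. The widest opened site of the locus, 2446 bp, was next to it at 109982862 to 109985307. The closest pair from different lists was the p63-closed site at 110005116 to 110006614 and the opened site at 110022162 to 110023928, with centres 17.2 kb apart and 11 unlisted entries between them. Farther right came 2 opened sites within 110137787 to 110173043 and then a single p63-closed site at 110313913 to 110315124. The same order followed again, with 2 opened sites within 110381539 to 110402171 and a p63-closed site at 110561591 to 110562560. The last member was an opened site at 110656293, and the remaining 343 kb of the interval held no listed site.

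At KLF5, from 73200000 to 74400000 on chromosome 13, the lists were more separated. The left end held 3 opened sites within 45.4 kb, from 73224380 to 73269746, the end of a run of 6 that begins left of the interval; 41.8% of all opened sites lie in runs of at least that length. The last of them, 3569 bp wide, was the widest member of all, a width that 1.68% of opened sites reach. Then came 5 p63-closed sites in a row, from 73400145 to 73682468, a stretch of 282 kb with no site of the opened list, although the p63-closed list too is named for opening by the morphogens. It was the longest run of p63-closed sites in the 5 loci. Of all p63-closed sites, 30.6% lie in runs of at least 5, so this is no rare length. The widest of them, 2281 bp, lay at 73559410 to 73561690. The last 2, at 73676824 to 73678585 and 73681491 to 73682468, had centres 4.28 kb apart with 3 unlisted entries between them. They were the sole pair of members from the same list within 10 kb, where 13.5% of p63-closed sites have such a neighbour.

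The sixth p63-closed site of KLF5, at 73767944 to 73768859, was 916 bp wide, the narrowest of the p63-closed members. It was paired with an opened site at 73747224 to 73749496, 20.0 kb away between centres, the closest pair of the 2 lists in this locus. To its right lay 3 opened sites and no further p63-closed site within the interval, at 73946303, 74274914 and 74392346. The gap of 329 kb between the first and second of these, with 222 unlisted catalogue entries, was the widest between neighbouring members of any locus. The density over the interval was 16.1 listed sites per 1000 entries, against 8.76 for chromosome 13.

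Across the 5 loci, p63-closed sites were a median 1567 bp wide (916 to 3232 bp), against 1531 bp over their list, and 8 of 15 were wider than the list's median. Opened sites were a median 1792 bp wide (853 to 3569 bp), against 1597 bp over their list, and 16 of 27 were wider than that median. The upper quartile of the own list, 2005 bp for p63-closed and 2063 bp for opened sites, was reached by 4 of 15 and 11 of 27 members. The members thus covered 25.6 kb of p63-closed and 51.9 kb of opened chromatin.

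A p63-closed site lay a median 68.2 kb from the nearest opened site in the loci, against 120 kb over the whole list, and 6 of 15 had one within 50 kb, against 28.9% of the list. These 6 were both sites of GRHL2, 3 of KLF4 and 1 of KLF5. For opened sites the median distance to the nearest p63-closed site was 133 kb, against 197 kb, and 5 of 27 had one within 50 kb, against 22% of the list. No 2 members of different lists were closer than 13.5 kb between centres. Between opened sites themselves, 16 of 27 had another within 50 kb, against 40.3% of that list, and 7 of 15 p63-closed sites had another p63-closed site within 50 kb, against 41.8% of theirs. Both lists were denser in the loci, at 8.98 opened sites per 1000 entries against 4.45, and 4.99 p63-closed sites against 3.30. Whether the distances are shorter than these densities alone would give was not tested.

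**Figure D4:**
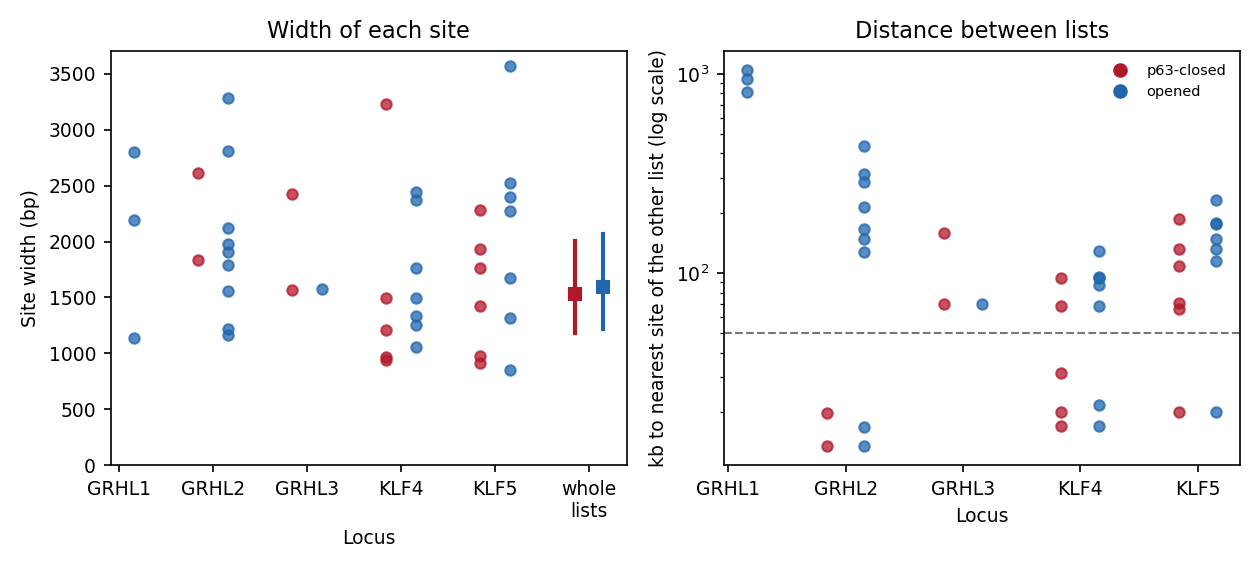
Width of each member site in bp (left) and distance in kb between its centre and the nearest site of the other list on a log scale (right), by locus, with p63-closed sites in red and opened sites in blue; squares and lines at the right of the first panel give the median and quartiles of the whole lists, and the dashed line marks 50 kb. The 3 opened sites of GRHL1 are 809 to 1054 kb from any p63-closed site, and 11 of the 42 members lie below the dashed line. Over the whole lists, 28.9% of p63-closed and 22% of opened sites have a site of the other list within 50 kb.

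Membership depended on the borders: intervals shortened by 25% at each end held 10 p63-closed and 16 opened sites, and intervals lengthened by as much held 20 and 37. The site nearest to a border from inside was the opened site at 74392346 to 74394866, centred 6.39 kb within the right end of KLF5. The nearest from outside was an opened site at 73194976 to 73196316, centred 4.35 kb beyond its left end. At the other borders the first site outside was 14.8 to 1115 kb away.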

How the data were processed

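Accessibility was assayed by ATAC-seq in 8 H9 samples. Per the labels' protocols, nuclei were transposed with Tn5, and libraries passing a score of enrichment at transcription starts were sequenced deeply. Per the submitters' processing notes, the tools were FastQC, Bowtie2, SAMtools, MACS2 and DESeq2 and the build hg19 (GRCh37); no source used here gives their versions, thresholds or how replicates were combined. The authors deposited 2 site lists of 4 columns (chromosome, start, end, numbered name), with no score.

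Sites were assigned by centre to the intervals 9.8-10.4 Mb of chromosome 2 (GRHL1), 102.2-103.0 Mb of chromosome 8 (GRHL2), 24.4-24.95 Mb of chromosome 1 (GRHL3), 109.8-111.0 Mb of chromosome 9 (KLF4) and 73.2-74.4 Mb of chromosome 13 (KLF5). Members and lists were chosen with earlier results of these data known. Catalogue entries per interval were interpolated from the numbers in the site names; at 6 jumps of the numbering, outside the loci, they were estimated from distance. Windows ran from the first base to the last listed site. Named sites are, per locus and list, the widest site, the longest run, the largest group of sites within 10 kb of each other and the closest pair of different lists, or all sites in loci with at most 10; further sites at GRHL2, KLF4 and KLF5 were named after their values were seen. Exact 95% intervals cover counting error only. The counting steps were tested on simulated data. Software was Python 3.11.15 with scipy 1.17.1, pandas 2.3.3, numpy 2.4.6 and, for plots, matplotlib 3.10.9. Promoters are from RefSeq (GRCh38.p14) and were used for 4 of 5 genes, with GRHL2 left out by plan.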

Additional observations from a re-analysis of the deposited data

How the results depend on the processing

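No paired analysis was possible because neither list gives values by sample; leaving out single replicates was not run for that reason. Of 43 alternative values, 41 stayed within 1.5 times a count, or within the interval or spread of a share, density or distance, and 2 moved. Opened sites numbered 16 with intervals shortened by 25% at each end, against 27, since fewer sites are then covered. The p63-closed sites numbered 9 without the KLF5 locus, against 15. Leaving out each locus in turn gave 9 to 15 p63-closed sites, 18 to 26 opened sites and a p63-closed share of 31.0 to 41.9%. Sites touching an interval were the same in number as those centred in it. Many of these settings could hardly give another value, so the tally is no measure of stability. With no score per site, a threshold stricter than that of the authors was not applied, and leaving out narrow sites stood in for it. The background list of epithelial genes was not counted, for want of hg19 gene positions. Depth is unknown, so a region missing from both lists is not shown to be unchanged.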
